A study of Mus musculus with 2 samples.

Results

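The Hox cluster genes code for homeodomain transcription factors and lie in 4 chromosomal clusters in the mouse. They were followed through every gene probe of the array whose gene name is Hox, a cluster letter from a to d and a paralog number. This rule took 51 of 41158 gene probes and 38 of 20054 named genes, with 11 genes in the Hoxa cluster on chromosome 6, 10 in Hoxb on chromosome 11, 8 in Hoxc on chromosome 15 and 9 in Hoxd on chromosome 2. Wherever a probe's accession could be looked up as a RefSeq transcript, it gave the same gene as the probe's name. The other probes, among them the only Hoxc4 probe and 1 of the 2 Hoxb6 probes, rest on the array's own name alone. Hoxc11 had no probe among the 51. The RNA came from expandable hepatoblasts, liver progenitor cells of strain C57BL/6, at passage 20 and at passage 5. Both cultures grew in basal medium with insulin, transferrin and selenite, nicotinamide, ascorbic acid phosphate, albumin, EGF, the GSK3 inhibitor CHIR99021, the TGF-beta receptor inhibitor E-616452, lysophosphatidic acid and sphingosine 1-phosphate, on Matrigel or laminin. The labels name no transgene, age or sex, and they do not say which surface each array's cells grew on. There was 1 array per passage and the passages came from separate experiments, so that no difference below has a replicate check, and passage and experiment cannot be told apart. The arrays also differed in sex-linked RNA: Xist was 36.5-fold higher at passage 20, while Ddx3y and Eif2s3y, both on the Y chromosome, were at least 21.4-fold and 20.5-fold lower. Xist was above background on both arrays, so that passage 5 had signal of Xist and of both Y-linked genes.

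Hox genes give cells their position along the body axis. Genes of one cluster share the direction of transcription, and their order along the chromosome follows both the order in which they switch on in the embryo and the level of the axis at which they are active: paralogs with low numbers act towards the head and those with high numbers towards the tail. HOX proteins bind DNA through the homeodomain, often together with PBX and MEIS proteins. The clusters are kept silent by Polycomb proteins, kept active by trithorax proteins such as the MLL methyltransferases, and switched on in the embryo by signals that include retinoic acid and CDX factors. The liver forms from foregut endoderm, and its epithelium is marked by other homeodomain factors, among them HHEX and PROX1.

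The probes on which the values rest are shown 5′ to 3′, with positions in build mm9 as the files give them. The exon or untranslated region of a probe is not annotated in the files. The Hoxb6 and Hoxb9 pairs are printed because the reading of each gene turns on them, and the first 30 bases are given for every probe in this first set, which lies on the plus strand of chromosome 11.
Hoxb9 probe 1, chr11:96137065-96137124: tcctatcctcatttgacagaatgtaacttt
Hoxb9 probe 2, chr11:96137748-96137807: gcttgtgttttgtgatttctttggcagtga
Hoxb7, chr11:96151211-96151270: gttgctagtaaggtctttgtaaaatcttgc
Hoxb6 probe of an Ensembl transcript, chr11:96160281-96160340: ggtgctatttgacaattcctgcctctgcca
Hoxb6 probe of the RefSeq transcript, chr11:96162563-96162622: tcgagtctcatttcgtccatgtcccccgtg

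The probes of the other measured genes are shown next, because they gave a signal on at least 1 array. The Hoxa3 probe lies on the minus strand and the 3 Hoxc probes on the plus strand. The Hoxa3 and Hoxc10 probes are printed whole, at 60 bases, and those of Hoxc4 and Hoxc13 as their first 30 bases. The files give the Hoxc10 probe a span, chr15:102798021-102801269, that is longer than the probe, and the Hoxc4 probe a span that is shorter.
Hoxa3, chr6:52120410-52120469: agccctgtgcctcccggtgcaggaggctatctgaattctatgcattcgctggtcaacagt
Hoxc4, chr15:102866538-102866583: ttctttccttctttagccttccttcccttt
Hoxc10: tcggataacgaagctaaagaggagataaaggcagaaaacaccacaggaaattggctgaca
Hoxc13, chr15:102758794-102758853: tataaacttctttaaaggagatagagggtt

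Hoxb4 had no probe above the background limit and is shown because its probe reads into the homeodomain itself. Capitals mark the codons of residues RRMKWKK, which belong to the recognition helix that contacts DNA. Among Hox probes of different genes the longest shared run, 22 bases, was between a probe of Hoxa9 and one of Hoxb3, and no other pair shared more than 14 bases.
Hoxb4, chr11:96181521-96181580, plus strand: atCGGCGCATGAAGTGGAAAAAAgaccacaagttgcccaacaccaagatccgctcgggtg

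Most Hox genes were not detected above background in these hepatoblasts. Of 38 genes, 7 (18.4%) passed the scanner's flag for a signal well above background on 1 array or both, against 58.8% of all named genes. They were Hoxa3, Hoxb6, Hoxb7, Hoxb9, Hoxc4, Hoxc10 and Hoxc13. Above background were 4 of the 7 at passage 20 and all 7 at passage 5. Hoxa3, Hoxb6, Hoxc4 and Hoxc10 were above it on both arrays, 0 genes at passage 20 only, and Hoxb7, Hoxb9 and Hoxc13 at passage 5 only. Among all named genes 366 were above background at passage 20 only and 683 (3.41%) at passage 5 only. With 1 array per passage these counts are a description and were not tested.

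The remaining 31 genes were dark, that is, not well above background on either array. The 42 dark probes, which include 3 of measured genes, had processed signals between 19.2 and 38.8 at passage 20 (median 22.7) and between 21.9 and 75.6 at passage 5 (median 25.9). Of the gene probes with the flag for a signal well above background, the lowest read 94.6 at passage 20 and 109 at passage 5, so that each dark Hox probe lay below that limit on both arrays. Hoxb1, which patterns the hindbrain, was printed in 10 spots: they gave 19.0 to 35.2 at passage 20 and 21.9 to 28.4 at passage 5, and 0 of the 10 were above background on either array. These signals bound the expression of the dark genes and do not show that it is absent. In bulk RNA a lower level in every cell and a smaller number of expressing cells cannot be told apart.

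**Figure D1:**
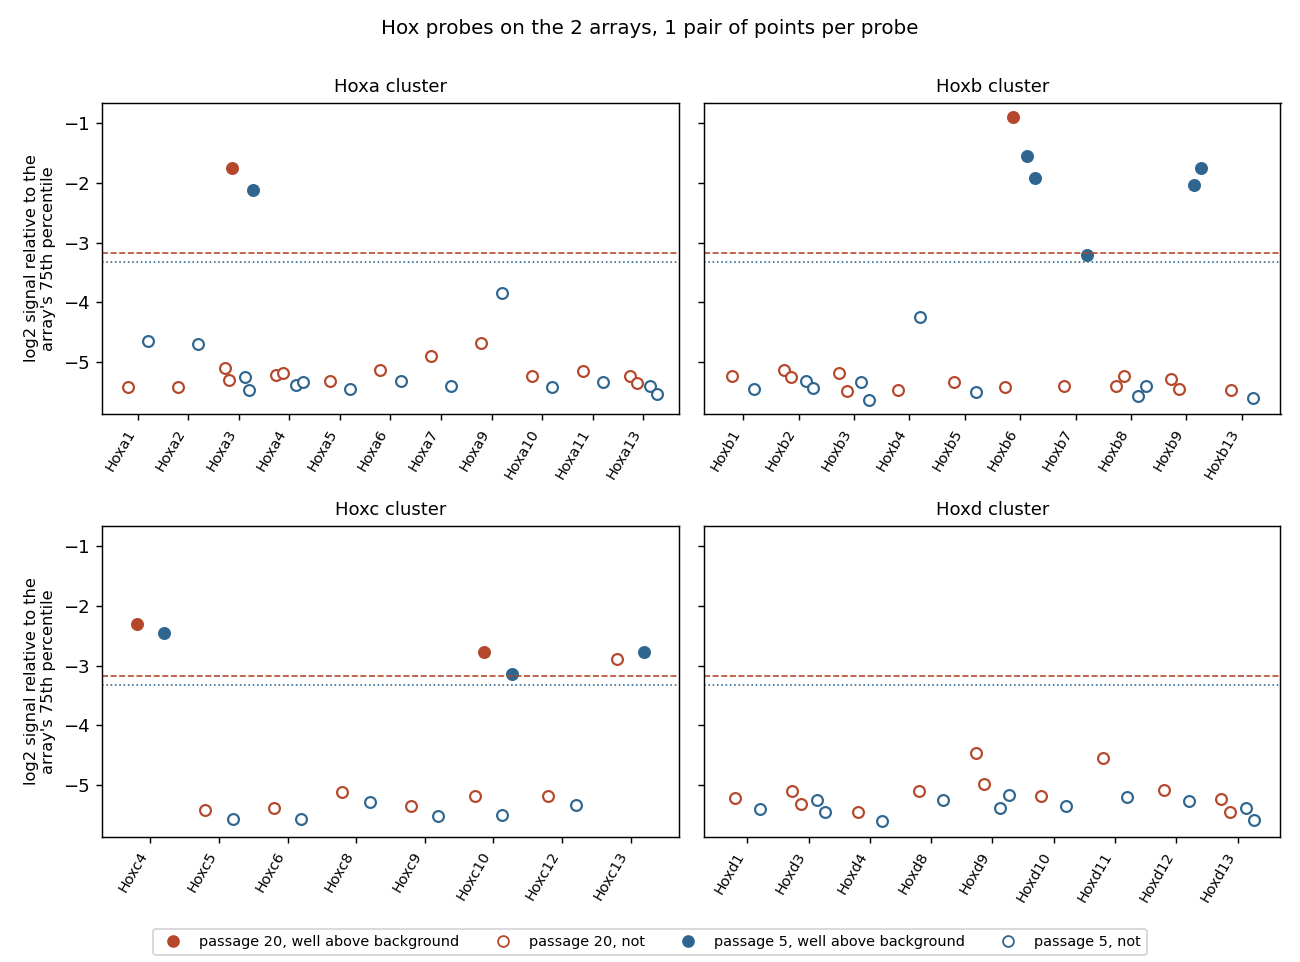
Levels of the 51 Hox probes (log2 signal relative to each array's 75th percentile) in the 4 clusters, with genes in paralog order, passage 20 to the left of passage 5, filled points well above background and open points not; the dashed and dotted lines are the lowest levels with that flag at passage 20 (-3.17) and at passage 5 (-3.32). Of the 42 dark probes, all points lie below both lines, while Hoxc13 at passage 20 lies above its line without the scanner's flag.

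Along the clusters the measured genes were scattered. Hoxa had 1 of 11 genes measured, Hoxb 3 of 10, Hoxc 3 of 8 and Hoxd 0 of 9. By paralog number, 1 of 8 anterior genes (groups 1 to 3), 3 of 15 central genes (4 to 8) and 3 of 15 posterior genes (9 to 13) were measured. The Hoxd genes, known for patterning of limbs, genitalia and the posterior trunk, were dark in all of their probes, including both probes each of Hoxd3, Hoxd9 and Hoxd13. No stretch of neighbouring genes was measured without a gap except Hoxb6 with Hoxb7. Homeobox genes outside the Hox clusters, a list of 151 on the array that includes CDX, PBX and MEIS genes, had 56 measured members (37.1%), which lies between the share of Hox genes and that of all genes.

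**Figure D2:**
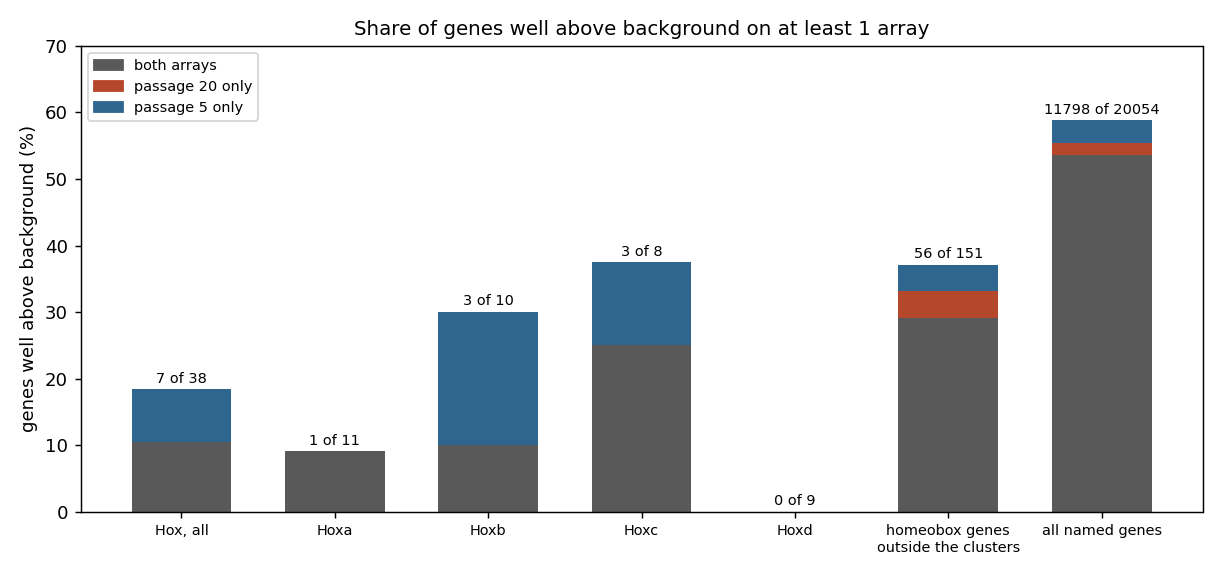
Percentage of genes well above background, split into both arrays, passage 20 only and passage 5 only, for all Hox genes, each cluster, 151 homeobox genes outside the clusters and all named genes, with the counts above each bar. The Hox bar (7 of 38) is lower than both comparison bars, the Hoxd bar is at 0 of 9, and no Hox bar has a passage 20 only portion.

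Probe composition was similar in both sets. The GC content of the measured probes was 36.7 to 55.0% (median 40.0%) and that of the dark probes 30.0 to 55.0% (median 41.7%). In 2 genes the measured probe stood beside dark ones: Hoxa3 had 2 further probes that were dark and Hoxc10 had 1.

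The Hox genes called 2-fold different between the arrays were in the Hoxb cluster; Hoxb7 and Hoxc13, seen at passage 5 only, may differ by more than their values show. Of the 7 measured genes, 1 (Hoxb6) was at least 2-fold higher at passage 20, where 3.26% of all measured genes were, and 1 (Hoxb9) was at least 2-fold lower, where 5.74% were. The counts are too small to be set against those shares. The median difference of the 7 genes, passage 20 minus passage 5 on the log2 scale after subtracting each array's 75th percentile, was 0.15, against 0.07 for all measured genes, and turned negative (-0.16 to -0.036) with quantile, median, loess and spike-in scaling and in the authors' deposited table. In that median the genes seen at passage 5 only stand at their bounds, and Hoxb7, which has no fold, stands at 0.

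Hoxb9, a posterior paralog, was read by 2 probes of the same RefSeq transcript. Probe 1 had a processed signal of 19.5 at passage 20, not well above background, and 323 (scanner error 39.1) at passage 5. This gave a level at least 2.69-fold lower at passage 20, a log2 bound of -1.43. Probe 2 had 22.0 at passage 20, not well above background, and 263 (error 36.3) at passage 5, a level at least 2.19-fold lower. Both Hoxb9 probes were thus above background at passage 5 and not at passage 20. For such a bound the passage 5 level is set against the probe's own passage 20 level or, where that is lower, against the lowest passage 20 level of any probe well above background.

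Hoxb8, whose 2 probes lie between those of Hoxb9 and Hoxb7, was dark on both arrays. Its probes gave 22.7 and 20.3 at passage 20 and 25.6 and 23.0 at passage 5. Hoxb7 had 20.2 at passage 20, not well above background, and 118 (error 26.0) at passage 5. Its passage 5 level of -3.21 log2 was below the lowest level well above background at passage 20, -3.17, so that no fold can be given.

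Hoxb6, a central paralog, gave opposite readings from its 2 probes, which start 2282 bases apart. The probe of the Ensembl transcript had 458 (error 52.7) at passage 20 and 288 (error 41.0) at passage 5, a level 2.03-fold higher at passage 20 (log2 difference 1.02). With the other scalings and with normexp background correction the difference was 0.71 to 0.98, short of 2-fold. The probe of the RefSeq transcript had 20.0 at passage 20, not well above background, and 371 (error 43.7) at passage 5, a level at least 3.09-fold lower (log2 bound -1.63). The count of 1 higher Hox gene uses the Ensembl probe, because each gene is read from its probe of highest mean level over both arrays. With the RefSeq probe, a choice made after seeing the data, 0 Hox genes were 2-fold higher and 2 (Hoxb6 and Hoxb9) were 2-fold lower. The direction of Hoxb6 is therefore not settled by these arrays.

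Probes that differ 2-fold in opposite directions were rare on the array. Among 4879 genes with several measured probes there were 9 such genes, and Hoxb6 was 1 of them. Only 2 Hox genes, Hoxb6 and Hoxb9, had several measured probes. From the first Hoxb9 probe to the RefSeq probe of Hoxb6, a span of 25557 bases, 4 probes of 3 genes were above background at passage 5 and not at passage 20. Both Hoxb8 probes were dark on both arrays, and the Ensembl probe of Hoxb6 was above background on both. Among all named genes 683 (3.41%) were above background at passage 5 only. The ends of the span were set by probes with this pattern, and the count was not tested.

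**Figure D3:**
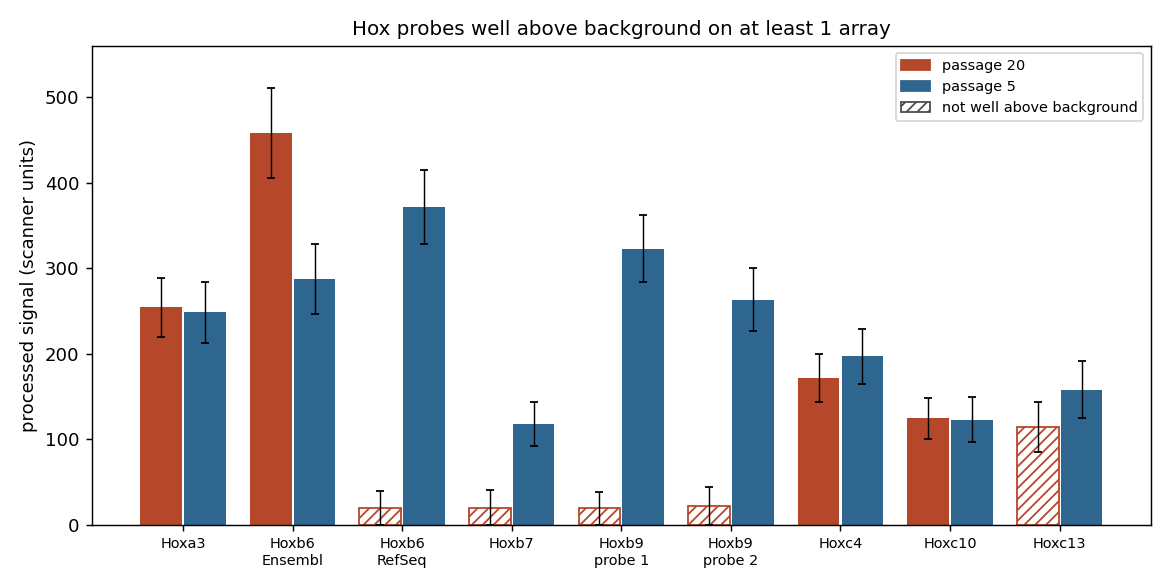
Processed signal (scanner units) of the 9 Hox probes well above background on 1 array or both, passage 20 left of passage 5; error bars are the scanner's own error of a spot, hatched bars are not well above background, and heights of different probes cannot be compared. The RefSeq probe of Hoxb6, Hoxb7 and both Hoxb9 probes are between 19.5 and 22.0 at passage 20 and between 118 and 371 at passage 5, while the Ensembl probe of Hoxb6 is at 458 and 288.

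Hoxa3, an anterior paralog needed for derivatives of the pharyngeal pouches, had 254 (error 34.0) at passage 20 and 249 (error 35.6) at passage 5 in its measured probe, a log2 difference of 0.38. The signals before scaling lay within the scanner error of each other. The 0.38 is of levels after each array's 75th percentile was subtracted, and it was 0.07 with the median as scale. Hoxc4 had 172 (error 28.1) at passage 20 and 197 (error 32.1) at passage 5, a log2 difference of 0.15. Its raw signal was lower at passage 20 and its scaled level higher, since the signal at the 75th percentile was 853 at passage 20 and 1085 at passage 5. The sign of the Hoxc4 difference turned with the scaling (-0.16 to -0.036 with quantile, median, loess and spike-in scaling and in the authors' deposited table).

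Hoxc10, a posterior paralog active in the lumbar region and hindlimb, had 124 (error 23.8) at passage 20 and 123 (error 26.5) at passage 5, a log2 difference of 0.36. This difference, too, moved with the scaling: 0.05 to 0.16 with quantile, median, loess and spike-in scaling and in the authors' deposited table. Hoxc13, known for its part in hair and nail keratin expression, had 114 (error 28.9) at passage 20, not well above background, and 158 (error 33.7) at passage 5. Its level was at least 1.09-fold lower at passage 20. The 4 genes Hoxa3, Hoxc4, Hoxc10 and Hoxc13 were all within 2-fold between the arrays by these values, where the value of Hoxc13 is a bound and its true difference may be larger.

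Some dark genes were brighter on 1 array without passing the limit. Hoxa9 had 33.3 at passage 20 and 75.6 at passage 5. Hoxb4 had 19.3 at passage 20 and 57.2 at passage 5, and 1 probe of Hoxd9 had 38.8 at passage 20 and 25.9 at passage 5. With no filter on dim probes Hoxb4 and Hoxb7 joined Hoxb9 as 2-fold lower at passage 20, which gave 3 of 38 genes lower, against 6.41% of all named genes in that setting. With the scanner's less strict flag for a signal that is positive and significant, added after seeing the data, 14 of 38 Hox genes counted as measured, against 15787 of 20054 named genes.

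**Figure D4:**
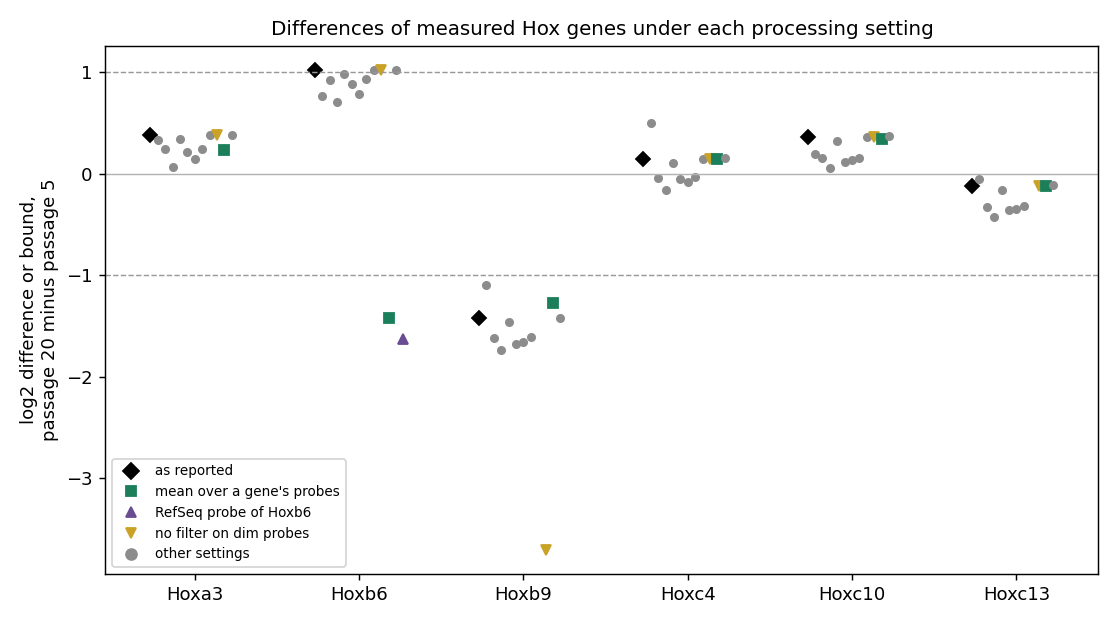
Log2 difference or bound, passage 20 minus passage 5, of the Hox genes with a fold, under each processing setting (diamond, as reported; dashed lines, 2-fold). Hoxb6 is at 1.02 as reported and below -1 with the mean over its probes and with its RefSeq probe. That mean takes in the RefSeq probe's passage 20 reading, which was not well above background. Hoxb9 is below -1 under every setting that gives it a value.

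A transcript inside the Hoxa cluster was above background at passage 5 only, as were 2 of 10 Hoxb genes (Hoxb7 and Hoxb9) and 683 (3.41%) of all named genes. The probe of this transcript, named 2700086A05Rik on the array and Hoxaas3 (a long noncoding RNA of the cluster) in the RefSeq table, lies at chr6:52160704-52160763. It is between the probes of Hoxa6 and Hoxa7 and on the same strand as the Hoxa probes. An RNA antisense to the Hoxa genes, as the name Hoxaas3 has it, would lie on the other strand. The name was reached through the older symbol, and whether the probe reads Hoxaas3 was not tested. The probe had a signal of 20.1 at passage 20, not well above background, and 356 at passage 5, so that its level was at least 2.96-fold lower at passage 20. Hoxa6 and Hoxa7 were dark on both arrays. The other 7 probes within the spans of the 4 clusters that are not named Hox were dark on both arrays. They include Hoxd3os1, an antisense transcript of Hoxd3, and 0 of them lie within the Hoxb span.

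Genes that flank the clusters were mostly measured and, by the probe used, within 2-fold. Of 16 transcripts and genes in or beside the clusters on the array, 11 (68.8%) were measured, against 58.8% of all named genes. Of the 11, 0 were higher and 1 lower (Hoxaas3), with a median of 0.17 (-0.14 with the median as scale). Of all measured genes 3.26% were higher and 5.74% lower. The counts of 2-fold calls in this and the lists below are too small to be set against those shares. Snx10, near Hoxa, differed by -0.025 log2 by the probe used and was past 2-fold (1.16) with the mean over its 2 probes, of which 1 was dark. The transcription factor gene Atf2 differed by 0.55 log2, the mitochondrial gene Mtx2, both of them near Hoxd, by 0.43, and the metabolic gene Hibadh, near Hoxa, by 0.41. Evx1 and Evx2, homeobox genes at the posterior ends of Hoxa and Hoxd, were dark on both arrays.

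The HOX cofactor genes, in contrast to the Hox genes, were nearly all measured. The share of all named genes was 58.8%. Of 9 genes of the PBX, MEIS and PKNOX families, which form complexes with HOX proteins on DNA, 8 were measured on both arrays, with 0 higher, 0 lower and a median of 0.28 that fell below 0 (-0.031) with the median as scale. Meis2 had a signal of 2983 at passage 20 and 2044 at passage 5, a log2 difference of 0.89. Its 3 probes gave differences or bounds of 0.80 to 1.97. With the mean over its probes it was past 2-fold (1.86 log2), but that mean takes readings not well above background at their own level. Further differences were 0.46 for Pbx4, 0.32 for Pbx2, 0.29 for Pknox1, 0.27 for Pbx3, -0.06 for Pknox2 and -0.36 for Meis3. Meis1 was dark on both arrays.

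The CDX and ParaHox genes are the closest relatives of the Hox genes and include direct activators of them. Of 6, 2 were measured, against 58.8% of all named genes. Cdx2, the caudal factor of intestinal epithelium and a known activator of central and posterior Hox genes, had a signal of 7359 at passage 20 and 21680 at passage 5, a level 2.32-fold lower at passage 20 (log2 difference -1.21). It was above background on both arrays. Gsx1 had 127 at passage 20 and 129 at passage 5, a log2 difference of 0.32. Cdx1, Cdx4, Pdx1 and Gsx2 were dark on both arrays.

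Among 10 early activators and repressors of Hox transcription on the array, 7 were measured, with 0 higher, 2 lower and a median of 0.09 (-0.23 with the median as scale). Lin28b, an RNA-binding protein of fetal cells, had a signal of 118 at passage 20 and 499 at passage 5, 3.32-fold lower, in the 1 of its 4 probes that was measured; with the mean over its probes the difference was -0.24 log2. The insulator protein gene Ctcf differed by -0.12 log2, Yy1 by 0.35, the geminin gene Gmnn by 0.16, Nr6a1 by 0.51 and Gdf11, a signal that shifts axial Hox expression towards the tail, by 0.09. Egr2, Gbx2 and Lin28a were dark on both arrays.

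The chromatin regulators of the clusters were measured in full, against 58.8% of all named genes. All 30 Polycomb group genes were measured, with 0 higher, 2 lower and a median of 0.26 (-0.050 with the median as scale). The shares of all measured genes were 3.26% higher and 5.74% lower. Cbx7, a chromodomain subunit of Polycomb repressive complex 1, had a signal of 163 at passage 20 and 776 at passage 5, 3.74-fold lower. Pcgf2, another subunit of that complex, had 95.6 at passage 20, not well above background, and 244 at passage 5, at least 2.01-fold lower, a call lost with normexp (log2 bound -0.0046). Phc3 and Rbbp4 differed by 0.77 and 0.76 log2, with the probes of Rbbp4 between -0.21 and 0.76.

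All 16 trithorax and MLL group genes were measured on both arrays, with 1 higher, 0 lower and a median of 0.43. Kmt2a, which codes for the methyltransferase MLL1 that maintains Hox expression, had a signal of 2905 at passage 20 and 1602 at passage 5, a level 2.31-fold higher at passage 20, which dropped under 2-fold with spike-in scaling and with the median as scale (log2 difference 0.90, the lowest of the settings). Kmt2d differed by 0.76 log2 (1.42 with the mean over its 3 probes, of which 1 was measured), Ash1l by 0.53 and Kdm6a, an H3K27 demethylase, by 0.52. The median of all genes, 0.07, moved to -0.24 when each array's median replaced the 75th percentile, to -0.16 with spike-in scaling and to -0.02 with loess, and differences of this size are relative to it.

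Of 17 retinoic acid genes on the array 10 were measured, with 0 higher, 3 lower and a median of -0.58. The share of all measured genes that were lower was 5.74%. With quantile, median, loess and spike-in scaling and in the authors' deposited table, 5 of the 10 were lower. In those settings 6.76% to 9.55% of all measured genes were lower. The median of the list was -0.34 with normexp and 0 when each gene's probes were averaged. With that averaging 3 of the 10 were still 2-fold lower. The 0 comes from genes that had no fold there, Dhrs3 among them, and were set to 0. Aldh1a1, which oxidises retinal, had a signal of 606 at passage 20 and 1749 at passage 5, 2.27-fold lower, and the receptor gene Rxrb 1252 at passage 20 and 3521 at passage 5, 2.21-fold lower. Dhrs3, which reduces retinal, had 22.1 at passage 20, not well above background, and 236 at passage 5, at least 1.96-fold lower, with no fold (a value of 0) in the mean over its probes. The retinoic acid receptors Rara, Rarb and Rarg, and the degrading enzymes Cyp26a1 and Cyp26b1, were dark on both arrays.

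**Figure D5:**
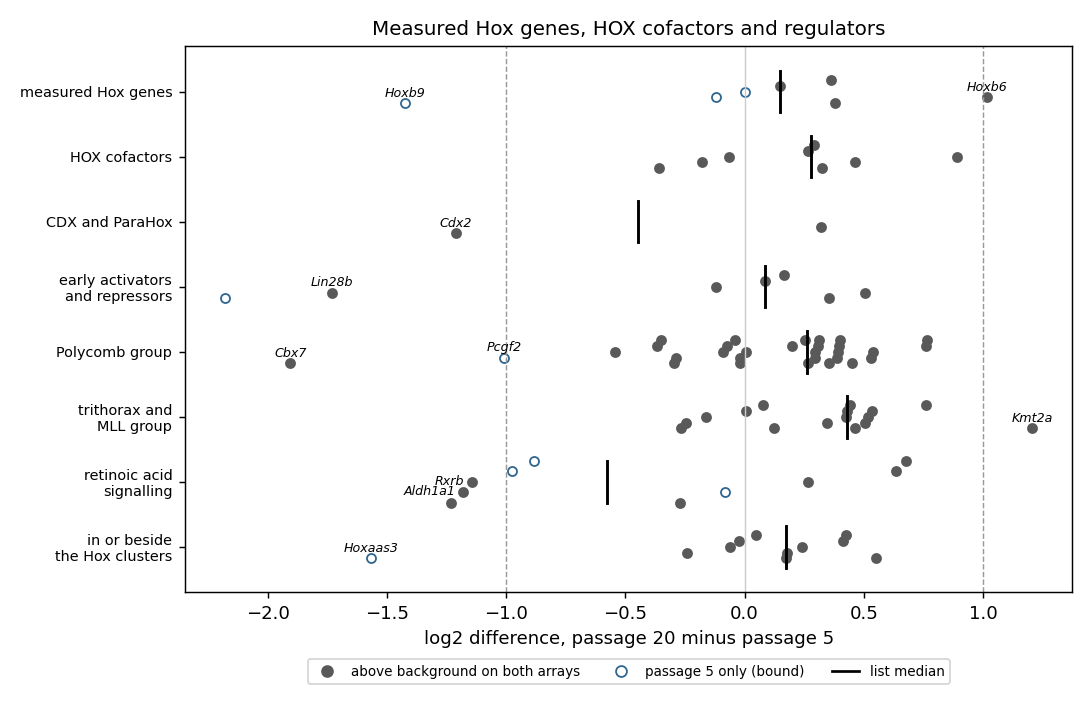
Log2 difference, passage 20 minus passage 5, of the measured Hox genes and of the measured genes of 7 lists, with bounds as open points, list medians as bars and 2-fold as dashed lines. Hoxb7, which has no fold, is drawn as an open point at 0. Names are given for some of the genes at least 2-fold different. The HOX cofactors all lie within 2-fold by the probe used, the largest being Meis2 at 0.89, while Cdx2 lies at -1.21, Cbx7 at -1.90 and Kmt2a at 1.21.

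Markers of liver cells and of other cell types were read on the same arrays, on which 58.8% of all named genes were measured. The liver lineage genes Hnf4a, Foxa2 and Afp were above background on both arrays, while Alb, Ttr, Dlk1 and Foxa1 were dark, so that 7 of 11 hepatoblast and hepatocyte markers were measured. Of 11 stellate cell and fibroblast markers, cells in which Hox genes are commonly active, 2 were measured. Acta2 differed by -0.10 log2 by the probe used and by -3.11 in its other measured probe, and was 2-fold lower with the mean over its probes. Dcn had 30.8 at passage 20, not well above background, and 1918 at passage 5, at least 15.9-fold lower. The summed signal of the list, 21788 at passage 20 and 31479 at passage 5, is nearly all from the 1 Acta2 probe used (21482 at passage 20 and 29241 at passage 5), and the defining genes Col1a1, Col1a2, Col3a1, Lum, Pdgfra, Pdgfrb, Des, Lrat and Rgs5 were dark on both arrays. Of 5 mesothelial markers 3 were measured. Wt1 and Upk3b were above background at passage 5 only and at least 2.02-fold and 4.34-fold lower at passage 20, the first under 2-fold with normexp. Msln, with 188315 at passage 20 and 171624 at passage 5, gives nearly all of the summed signal of 188399 at passage 20 and 172490 at passage 5. Of 7 endothelial markers 1 was measured, Egfl7, 3.25-fold lower at passage 20. Of 7 leukocyte markers 4 were measured, of 7 erythroid markers 1 and of 6 cholangiocyte markers 6. Not all markers went down: 1 hepatoblast and hepatocyte, 1 cholangiocyte and 1 leukocyte marker were at least 2-fold higher at passage 20. Another 1 cholangiocyte and 1 erythroid marker were at least 2-fold lower, and both of these lower calls were lost with normexp. The part of these differences, and of those in sex-linked RNA, in the Hoxb signals was not tested.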

How the data were processed

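Amplified Cy3-labelled RNA of each passage was hybridised to an Agilent mouse array, per the labels' protocols. Per the file headers, the deposited intensity values came from Agilent Feature Extraction 10.7.3.1, background-subtracted and detrended, with a scanner error and flags for outliers and signal above background, and probe positions are in build mm9. The mean spot and local background intensity, also deposited, served an alternative. The authors' deposited log2 table matched the log2 scanner values (r = 0.99986 for passage 20, 0.99987 for passage 5). When sorted, its columns differed by at most 0.000609 and each had a median of 6.31, as after quantile normalization. The sources used here do not give its tool, and it is not centred by gene.

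From each probe's mean log2 signal over spots, less outlier spots (69 at passage 20 and 73 at passage 5), the array's 75th percentile was subtracted. Of 41158 gene probes, 46.1% at passage 20 and 45.5% at passage 5 were well above background, and 0 spots were saturated. The number of arrays limits the precision: over 91 probes with 10 spots above background, repeat spots had an SD (median, log2) of 0.058 for passage 20 and 0.054 for passage 5. Between probes of the same gene the spread of the log2 difference was larger. Its SD was 0.19 (median over 4300 genes with several probes above background on both arrays). Both values come from probes above background and need not hold for dimmer ones. Values written "at least" are bounds, and 2-fold counted as different. No p-value was computed. Up to 4 measured members per list, by size of difference, are named, or all in lists under 13 genes, except some genes not reported here; the dark genes Hoxb4, Hoxa9 and Hoxd9 were picked after their values were seen. The members and lists were chosen with earlier results of these data known. The steps were tested on simulated data. Alternatives covered background correction (limma 3.58.1, normexp offset 50), scaling, filter, probe choice and threshold. Python 3.11.15 and R 4.3.3 were used.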

Additional observations from a re-analysis of the deposited data

How the results depend on the processing

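The count of Hox genes at least 2-fold higher at passage 20, 1 as reported, was 0 with normexp background correction, quantile normalization, the median or the 75th percentile over detected probes as scale, loess, spike-in scaling, the authors' deposited table, the mean over a gene's probes, a 4-fold threshold or the RefSeq probe of Hoxb6 (added after seeing the data). The gene in question was Hoxb6, whose difference stayed between 0.71 and 1.02 under the settings that kept its Ensembl probe. It turned to -1.43 with the mean over its probes and to a bound of -1.63 with the RefSeq probe. The mean over probes averages all probes of a gene at their own levels, with readings not well above background included. For Hoxb6 it takes in the RefSeq probe at its passage 20 signal of 20.0, which was not well above background and is no bound. The count of genes 2-fold lower, 1 as reported, was 0 with both arrays required above background or at 4-fold, 3 with no filter, and 2 with the mean over probes (Hoxb6, Hoxb9) or the RefSeq probe of Hoxb6. Hoxb9 kept a negative value in every setting that gave one, with bounds of -1.74 to -1.09 and a difference of -3.70 with no filter. The number of measured genes, 7, was 4 with both arrays required and 14 with the positive-and-significant flag (also added). The median difference, 0.15, was -0.16 with the median as scale, -0.053 with loess, -0.080 with spike-in scaling and 0.37 with both arrays required. These scalings change the split of all genes, 385 higher and 677 lower as reported, to 193 and 1127 (median), 270 and 844 (loess) and 224 and 985 (spike-in). Where no sentence above gives a cause, the cause was not tested. The alternatives were run on the other gene lists after seeing the data, and the calls they end stand beside those lists.

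No paired analysis was possible because each passage has 1 array and the labels give no replicate numbers. Leaving out a replicate was not possible for the same reason. Hoxb7 (118 at passage 5), Hoxc10 (124 at passage 20 and 123 at passage 5) and Hoxc13 (158 at passage 5) lie close to the lowest signals with the flag, 94.6 at passage 20 and 109 at passage 5. The bounds say nothing of how far below the limit a dim array lies.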

Other observations

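Among the 56 measured homeobox genes outside the Hox clusters, 6 were higher and 6 lower at passage 20 by 2-fold or more, with a median of 0.16. The shares of all measured genes were 3.26% higher and 5.74% lower. With normexp 3 of the homeobox genes were higher and 3 lower, and with the median as scale 3 were higher and 6 lower. Isl2, a LIM homeobox gene of motor neurons, had a signal of 393 at passage 20 and 41.7 at passage 5, not well above background, so that it was at least 4.60-fold higher. Nkx6-2 had 322 at passage 20 and 118 at passage 5, not well above background, at least 3.48-fold higher, and just short of 2-fold with normexp (log2 bound 1.00). Irx5, an Iroquois gene, had 267 at passage 20 and 1470 at passage 5, 4.32-fold lower. Dlx5, a distal-less gene of craniofacial skeleton and limb, had 19.7 at passage 20, not well above background, and 498 at passage 5, at least 4.14-fold lower. Of the 151 genes of this list on the array, 6 were above background at passage 20 only and 6 at passage 5 only. Of the 38 Hox genes 0 and 3 were, and of all 20054 named genes 366 and 683 (3.41%) were. The counts of both lists are too small to be set against each other. These values have no replicate check and were not tested.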
